A study of Mus musculus with 16 samples.

Results

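The proteasome subunit genes and the genes of the ubiquitin-conjugating (E2) enzymes were examined in RNA that precipitated with the RNA-binding protein Igf2bp2 from HL-1, a mouse line derived from atrial cardiomyocytes. Members were the single gene symbols that begin with Psma to Psmg followed by a digit, or with Ube2, in the deposited table. This gave 80 of the 20170 genes with a single symbol, measured by 97 transcript clusters (the array's gene-level probe groups). By role, 47 belong to the proteasome and 30 are E2 enzymes or E2 variants. The other members are Psmc3ip, Ube2cbp and Ube2dnl. Psmc3ip encodes a meiotic recombination factor and Ube2cbp a ubiquitin ligase that binds E2 enzymes, so these 2 match by symbol alone. Ube2dnl, now Ube2dnl1, was assigned to no role.

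RNA immunoprecipitation was followed by array hybridisation (RIP-chip). The 4 groups, each of 4 biological replicates, were anti-Igf2bp2 precipitates of cells given an siRNA against Airn, IgG precipitates of cells given that siRNA, anti-Igf2bp2 precipitates of cells given a scrambled siRNA, and IgG precipitates of cells given the scrambled siRNA. Both siRNAs were used at 10 nM, and per the labels the Airn siRNA is siAirn-001.1, in a series titled for Airn isoforms. Airn is a non-coding transcript that runs antisense to Igf2r. Igf2bp2 binds mRNA and is known to affect how long it lasts and how much of it is translated. HL-1 is an immortal line, so these values describe 1 cell line in culture. The authors' deposited table gives comparisons only: for each siRNA, how far the anti-Igf2bp2 precipitates differed from the IgG precipitates, with the p and the adjusted p. The differences were taken as log2, as is usual for such tables, although the header names no log base, and every fold value rests on this. A positive difference means a higher array signal of a transcript in the Igf2bp2 than in the IgG precipitates. The normalization is not known, so a difference may be relative to other transcripts and is not read as an absolute amount. Each ± value is a standard error (SE), worked out from that difference and its p. No single array's values were used, so the spread between replicates is seen only through these errors. The arrays measured RNA precipitated from whole cultures. The differences therefore describe precipitation, not the level of a transcript in the cells, and cannot be assigned to a part of the cells.

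The proteasome is the protease that degrades most short-lived and misfolded proteins of the cell. Its core particle is a barrel of alpha rings, which gate the entry, and beta rings, which hold the catalytic sites. The regulatory cap recognises ubiquitin chains, removes them and unfolds the substrate with a ring of ATPases. Ubiquitin reaches substrates through E1, E2 and E3 enzymes in turn, and the E2 enzyme often sets the type of chain. In heart muscle this system turns over sarcomere proteins and damaged proteins.

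Transcripts of both families stood on the higher side in the Igf2bp2 precipitates with both siRNAs, and most passed the test with the scrambled siRNA and none with the Airn siRNA. With the Airn siRNA, 73 of the 80 members had a difference above 0 and none passed an adjusted p of 0.05 per the authors' deposited table, higher or lower. The background for this siRNA per the authors' deposited table was 0.813% of all genes called higher and 0.169% called lower. At an unadjusted p under 0.05, the authors' deposited table had 34 of the 80 members higher and 3 lower with the Airn siRNA (46.2% in either direction), and 4292 of all 20170 genes higher and 3215 lower (37.2%). With the scrambled siRNA, 75 members were above 0 per the authors' deposited table, 52 were called higher and 2 lower. There the background per the authors' deposited table was 25.5% of all genes called higher and 17.2% called lower, against 65.0% and 2.5% of the members. The members' median difference per the authors' deposited table was 0.45 with the Airn siRNA and 0.72 with the scrambled siRNA, while the medians of all genes were 0.01 and -0.05. Centred on the median of all clusters, 6 members were called higher with the Airn siRNA (Psmb9, Psmc5, Ube2cbp, Ube2d3, Ube2e2 and Ube2v2). At an adjusted p under 0.01, 5 members were called higher with the scrambled siRNA.

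The differences of all genes spread to both sides of 0, and the members lay almost wholly within the higher side, as the cumulative plot shows. Among genes above 0 with the scrambled siRNA, 52.7% were called higher and the median was 0.61 per the authors' deposited table. The 75 members above 0 had 69.3% called and a median of 0.73 per the authors' deposited table. With the Airn siRNA, 0 of the 73 members above 0 were called, against 1.62% of the genes above 0. Their medians were 0.48 and 0.44 per the authors' deposited table. Nearly all members lay above 0, so leaving out the genes below 0 narrows the distance to the members by construction. No conclusion is drawn from that narrowing. The table gives no expression levels, so the part that a transcript's level in HL-1 cells has in these values was not tested.

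**Figure D1:**
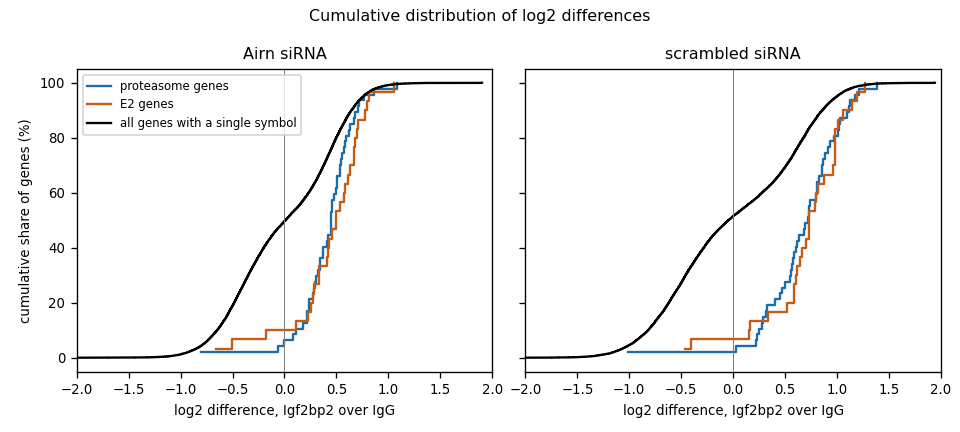
Cumulative share of genes (percent, vertical axis) against the log2 difference between Igf2bp2 and IgG precipitates (horizontal axis), with the Airn siRNA on the left and the scrambled siRNA on the right, for 47 proteasome genes, 30 E2 genes and all 20170 genes with a single symbol. The curves of both families lie to the right of that of all genes over most of their height, and their medians lie at 0.45 and 0.49 with the Airn siRNA and at 0.72 and 0.73 with the scrambled siRNA.

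Of the 14 genes of the constitutive core and its testis form, 10 were called higher with the scrambled siRNA and 1 lower per the authors' deposited table, and none with the Airn siRNA. Of the 7 alpha-ring genes, 6 rose in the Igf2bp2 precipitates with the scrambled siRNA and 1 fell per the authors' deposited table. With the scrambled siRNA Psma6 was the highest of the ring per the authors' deposited table, with 0.50 ± 0.34 for the Airn siRNA and 1.21 ± 0.34 for the scrambled siRNA (2.31-fold, adjusted p = 0.0183). Psma5 stood at 0.30 and 1.13 and Psma2 at 0.71 and 0.97 with the Airn and scrambled siRNA per the authors' deposited table. Psma3, Psma7 and Psma1 had values of 0.94, 0.86 and 0.62 with the scrambled siRNA per the authors' deposited table, all called. These genes encode alpha subunits of the constitutive core.

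The exception of the alpha ring was Psma8, which encodes an alpha subunit known from the testis, where it takes the place of Psma7. Psma8 had differences of -0.81 ± 0.28 with the Airn siRNA (adjusted p = 0.0909) and -1.01 ± 0.28 with the scrambled siRNA (2.02-fold lower, adjusted p = 0.0174) per the authors' deposited table. It was the lowest member with either siRNA, and 95.6% of all genes lay above it with the scrambled siRNA.

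Among the 7 beta-ring genes, 4 were called higher with the scrambled siRNA per the authors' deposited table and none lower. Psmb4, a structural beta subunit, was the highest per the authors' deposited table at 0.86 ± 0.32 with the Airn siRNA and 1.03 ± 0.32 with the scrambled siRNA (adjusted p = 0.0259). Psmb6, Psmb2 and Psmb7 had 0.80, 0.72 and 0.70 with the scrambled siRNA per the authors' deposited table and were called. Psmb5, Psmb1 and Psmb3 were not called there, with 0.56, 0.55 and 0.46 per the authors' deposited table. The less precise Psmb3 cluster stood at 0.73 with the scrambled siRNA (adjusted p = 0.0575) per the authors' deposited table, also not called. Psmb5 encodes the chymotrypsin-like, Psmb6 the caspase-like and Psmb7 the trypsin-like active subunit. Of these 3 catalytic subunits, Psmb6 and Psmb7 were called and Psmb5 was not.

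**Figure D2:**
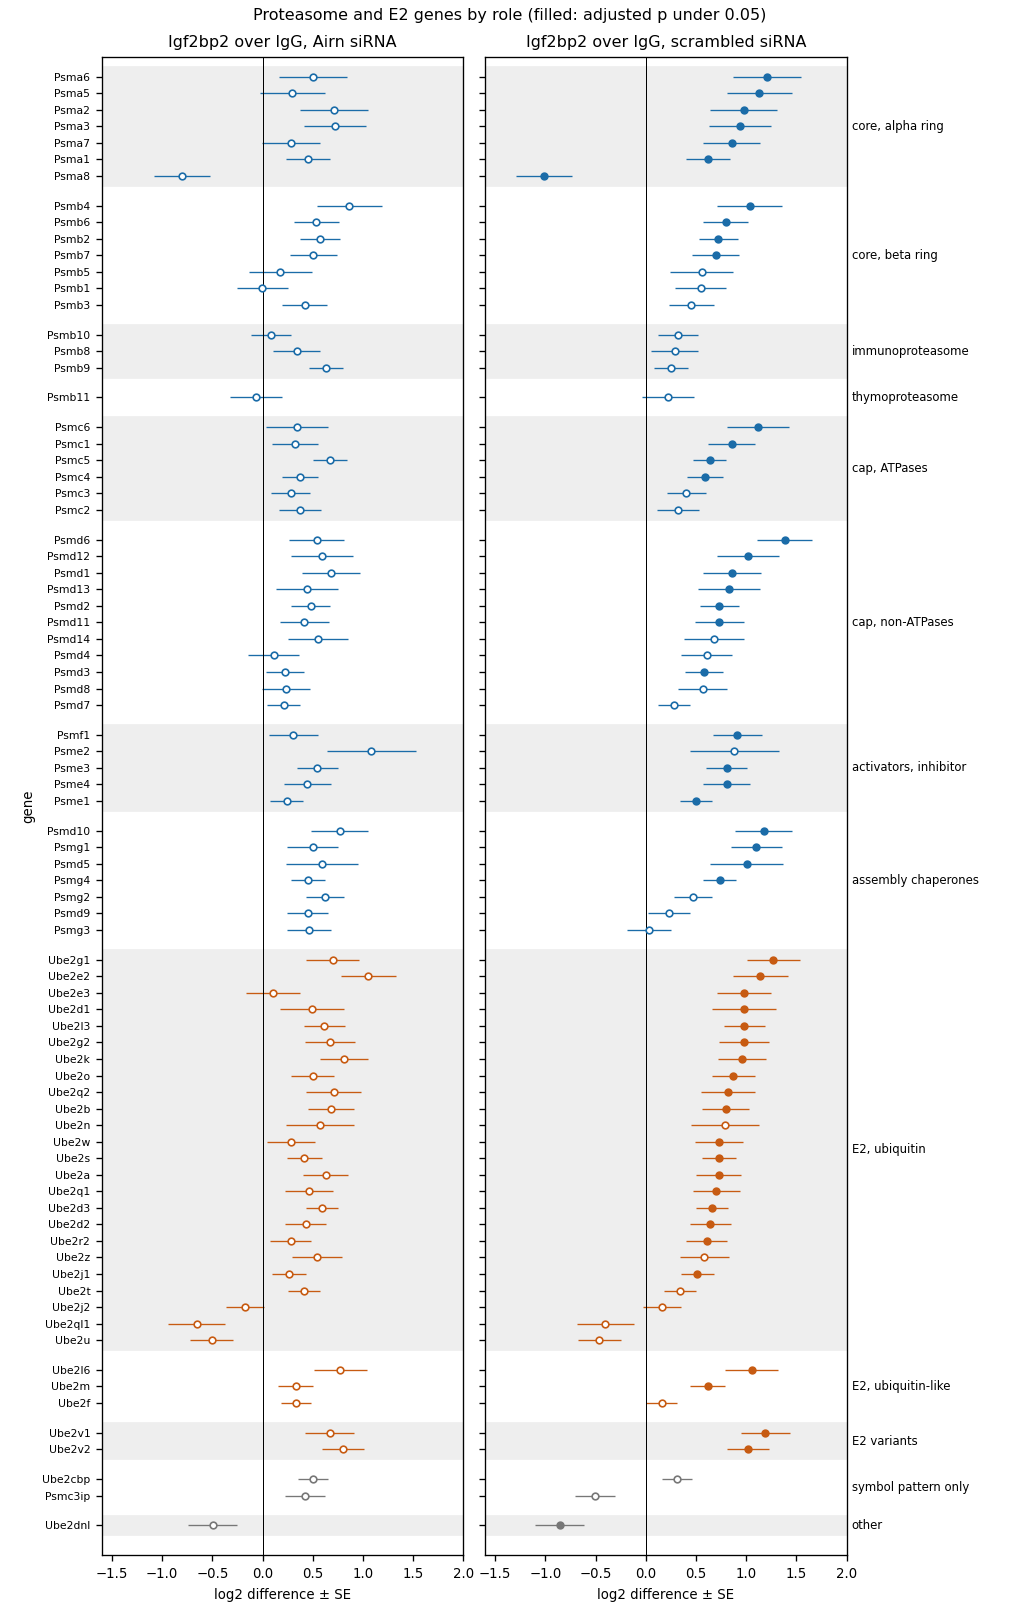
Log2 difference between Igf2bp2 and IgG precipitates (horizontal axes, points with SE bars) for 79 of the 80 genes, grouped by role, with the Airn siRNA on the left and the scrambled siRNA on the right. Points are filled where the adjusted p was under 0.05: 53 are filled with the scrambled siRNA, 51 of them to the right of 0, and 0 with the Airn siRNA.

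The 3 immunoproteasome genes, Psmb8, Psmb9 and Psmb10, were not called with either siRNA. Interferon induces these catalytic subunits, and they replace Psmb5, Psmb6 and Psmb7 in newly built core particles. In the authors' deposited table Psmb8 stood at 0.34 ± 0.24 with the Airn siRNA and 0.29 ± 0.24 with the scrambled siRNA, and its counterpart Psmb5 at 0.18 ± 0.31 and 0.56 ± 0.31. Psmb9 stood at 0.63 ± 0.17 (adjusted p = 0.0638) and 0.25 ± 0.17 (adjusted p = 0.233), and its counterpart Psmb6 at 0.54 ± 0.22 and 0.80 ± 0.22, per the authors' deposited table. Psmb9 was the only one of these 6 catalytic subunits that had an unadjusted p under 0.05 with the Airn siRNA and not with the scrambled siRNA. The authors' deposited table has Psmb10 at 0.08 ± 0.20 and 0.32 ± 0.20, and its counterpart Psmb7 at 0.50 ± 0.24 and 0.70 ± 0.24. With the scrambled siRNA each immunoproteasome gene lay below its counterpart. With the Airn siRNA Psmb8 and Psmb9 lay above their counterparts, and only Psmb10 lay below. Differences between genes were not tested, since the covariance of genes on the arrays is not in the table.

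Combined over both siRNAs, Psmb9 was called (0.44 ± 0.12, adjusted p = 0.00822 from the recovered SE), and Psmb8 (0.31, adjusted p = 0.113) and Psmb10 (0.20, adjusted p = 0.217) were not. The change of Psmb9 between the siRNAs was 0.38 ± 0.24 (95% interval -0.12 to 0.89). Psmb11, the beta subunit of thymic epithelium, stood at -0.07 with the Airn siRNA and 0.22 with the scrambled siRNA per the authors' deposited table, with no call.

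In the RefSeq annotation of GRCm38.p6, Tap1 lies between Psmb9 and Psmb8, and Tap2 next to Psmb8. Both encode the transporter that carries proteasome products into the endoplasmic reticulum. With the scrambled siRNA both transporter genes were called higher, and the immunoproteasome genes beside them were not. Tap1 stood at 0.52 (adjusted p = 0.103) with the Airn siRNA and 0.72 (adjusted p = 0.0168) with the scrambled siRNA per the authors' deposited table. Tap2 stood at 0.48 (adjusted p = 0.0934) and 0.53 (adjusted p = 0.0289) per the authors' deposited table. Of 11 genes of peptide loading and class I antigen presentation measured, 1 was called higher with the Airn siRNA (the transcription factor Irf1, 1.02) and 6 with the scrambled siRNA per the authors' deposited table.

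**Figure D3:**
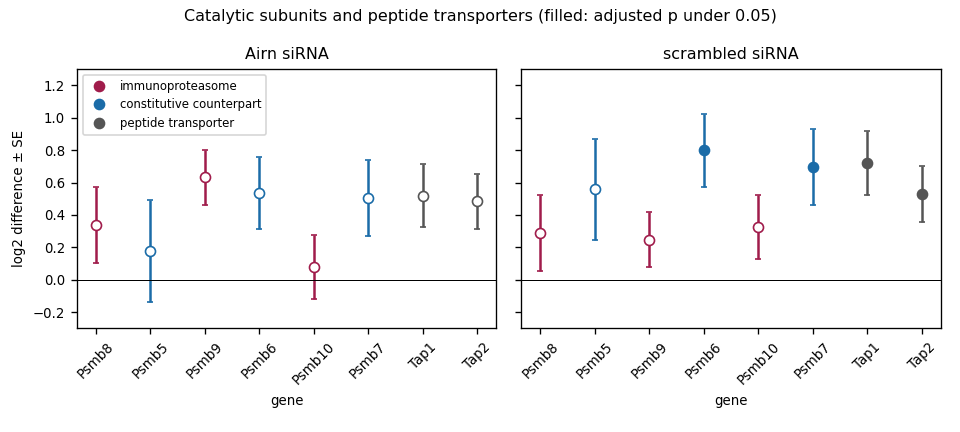
Log2 difference between Igf2bp2 and IgG precipitates (vertical axes, points with SE bars) for each immunoproteasome gene beside its constitutive counterpart and for Tap1 and Tap2, with the Airn siRNA on the left and the scrambled siRNA on the right. Filled points passed an adjusted p of 0.05: Psmb6, Psmb7, Tap1 and Tap2 with the scrambled siRNA, and no gene shown with the Airn siRNA.

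Promoter sequence was examined as a feature that the symbol rule did not use, in the 250 bases before the start of 65 members with an entry in RefSeq (GRCm38.p6). The following sequences are shown because they set the interferon-induced Psmb9 beside the constitutive catalytic subunits Psmb6 and Psmb5, and add Psmd6, the highest member with the scrambled siRNA. Capitals mark the matches, on either strand, to the 5 motifs searched.
Psmb5 (chr14:54617996-54618245, minus strand): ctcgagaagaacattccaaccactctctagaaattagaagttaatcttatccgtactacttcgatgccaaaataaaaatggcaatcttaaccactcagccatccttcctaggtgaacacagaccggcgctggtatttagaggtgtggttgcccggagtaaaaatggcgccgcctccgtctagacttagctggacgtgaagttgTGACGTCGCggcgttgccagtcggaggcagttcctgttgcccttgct
Psmb9 (chr17:34187331-34187580, minus strand): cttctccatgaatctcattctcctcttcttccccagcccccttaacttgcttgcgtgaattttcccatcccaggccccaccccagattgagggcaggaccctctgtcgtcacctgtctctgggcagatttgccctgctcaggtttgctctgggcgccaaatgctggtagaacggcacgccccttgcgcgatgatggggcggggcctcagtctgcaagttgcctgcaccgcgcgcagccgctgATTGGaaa
Psmb6 (chr11:70525107-70525356, plus strand): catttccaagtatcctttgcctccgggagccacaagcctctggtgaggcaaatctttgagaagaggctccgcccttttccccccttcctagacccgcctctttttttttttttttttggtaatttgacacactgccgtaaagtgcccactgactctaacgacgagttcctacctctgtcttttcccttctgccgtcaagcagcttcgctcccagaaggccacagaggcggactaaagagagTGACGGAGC
Psmd6 (chr14:14120946-14121195, minus strand): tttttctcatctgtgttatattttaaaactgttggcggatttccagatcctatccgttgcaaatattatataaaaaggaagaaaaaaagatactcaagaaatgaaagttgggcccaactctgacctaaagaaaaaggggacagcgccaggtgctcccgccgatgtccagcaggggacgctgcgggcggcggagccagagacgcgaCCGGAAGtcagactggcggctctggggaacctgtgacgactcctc
The capitals in Psmb5 and Psmb6 mark the antioxidant element TGACNNNGC, which Nfe2l1 and its relatives are known to bind. Those in Psmb9 mark a CCAAT box on the reverse strand, and those in Psmd6 the ETS element CCGGAAG.

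The antioxidant element was found before 12.8% of 39 proteasome genes and 17.4% of 23 E2 genes, against 11.5% of 27025 genes. The 27025 genes were all those with a promoter entry. They were not filtered by gene type or presence on the array, and were not matched to the members. The ETS element was found before 30.8% of the proteasome genes and 30.4% of the E2 genes, against 7.83% of all genes. The 12 proteasome genes with it were Psma6, Psmc1, Psmc2, Psmc6, Psmd2, Psmd4, Psmd6, Psmd11, Psmd12, Psme3, Psme4 and Psmg1. The 7 E2 genes with it were Ube2b, Ube2d3, Ube2f, Ube2j2, Ube2n, Ube2q1 and Ube2v1. Among these genes, Psmc2, Psmd4, Ube2f, Ube2j2 and Ube2n were not called with the scrambled siRNA, where 65.0% of all members were called higher. For the CCAAT box the shares were 35.9% and 21.7% against 37.5%, and for a form of the NF-kappaB site (GGGA and CC with 4 bases between) 23.1% and 30.4% against 19.7%. The interferon-stimulated response element (GAAA and GAAA with 2 bases between) was found before 7.69% of the proteasome genes and 0.0% of the E2 genes, against 3.46%. Motif matches describe letters in these windows and were not tested against the precipitation.

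The cap carried Psmd6, the highest member with the scrambled siRNA. Of its 17 genes, 11 were called higher with the scrambled siRNA per the authors' deposited table and none lower, with medians of 0.37 with the Airn siRNA and 0.68 with the scrambled siRNA. Psmd6, a lid subunit, had 0.54 ± 0.27 with the Airn siRNA (adjusted p = 0.173) and 1.39 ± 0.27 with the scrambled siRNA (2.61-fold, adjusted p = 0.00746) per the authors' deposited table. With the scrambled siRNA only 0.263% of all genes lay above Psmd6. The next 2 non-ATPase genes with the scrambled siRNA were the lid subunit Psmd12, with 0.59 and 1.02, and the base scaffold Psmd1, with 0.68 and 0.86, for the Airn and scrambled siRNA per the authors' deposited table.

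Some cap subunits that handle ubiquitin directly were not called. Psmd14, the deubiquitinase of the lid, stood at 0.55 with the Airn siRNA and 0.68 with the scrambled siRNA (adjusted p = 0.077) per the authors' deposited table. The ubiquitin receptor Psmd4 stood at 0.11 and 0.60 (adjusted p = 0.0702) per the authors' deposited table. Psmd2, which also binds ubiquitin and shuttle factors, was called at 0.73 with the scrambled siRNA, as were Psmd11 at 0.73 and Psmd13 at 0.83, per the authors' deposited table. The lowest non-ATPase genes were Psmd7 with 0.28, Psmd8 with 0.57 and Psmd3 with 0.58 for the scrambled siRNA per the authors' deposited table, of which Psmd3 was called (adjusted p = 0.0293). The less precise Psmd7 cluster stood above Psmd8 and Psmd3, at 0.665 with the scrambled siRNA (adjusted p = 0.057) per the authors' deposited table.

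Among the 6 ATPase genes, 4 were called higher with the scrambled siRNA per the authors' deposited table. Psmc6 had 0.34 ± 0.31 with the Airn siRNA and 1.12 ± 0.31 with the scrambled siRNA (adjusted p = 0.0183) per the authors' deposited table. The authors' deposited table has Psmc1 at 0.32 and 0.85, and Psmc4 at 0.37 and 0.59, both called with the scrambled siRNA. Psmc5 was nearly the same with both siRNAs, at 0.67 ± 0.17 with the Airn siRNA and 0.64 ± 0.17 with the scrambled siRNA per the authors' deposited table. Its adjusted p of 0.0569 with the Airn siRNA was the lowest of all members for that siRNA per the authors' deposited table. Psmc3 and Psmc2 were not called, with 0.40 and 0.32 for the scrambled siRNA per the authors' deposited table.

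Most activators and assembly factors of the proteasome were called along with its subunits. The authors' deposited table called 4 of 5 activator and inhibitor genes higher with the scrambled siRNA. Psme3, the nuclear activator, had 0.55 with the Airn siRNA and 0.81 with the scrambled siRNA, and Psme4, the activator known from spermatogenesis and DNA repair, 0.45 and 0.80, per the authors' deposited table. For the inhibitor Psmf1 the authors' deposited table has 0.30 and 0.91 (adjusted p = 0.0163). The interferon-inducible pair differed in precision: Psme1 was called at 0.50 ± 0.16 with the scrambled siRNA and Psme2 was not at 0.88 ± 0.44 per the authors' deposited table. With the Airn siRNA Psme1 stood at 0.24 and Psme2 at 1.08, the highest member for that siRNA (adjusted p = 0.118), per the authors' deposited table. Psme2 shares a more precise cluster with Psme2b-ps, outside the rule for members. That cluster stood at 0.62 ± 0.25 with the Airn siRNA and 0.94 ± 0.25 with the scrambled siRNA (adjusted p = 0.0153, called) per the authors' deposited table.

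The authors' deposited table called 4 of 7 assembly chaperone genes higher with the scrambled siRNA. Psmd10, a chaperone of the cap's base, had 0.77 with the Airn siRNA and 1.18 with the scrambled siRNA (adjusted p = 0.0122) per the authors' deposited table. For Psmg1, a chaperone of the core, the authors' deposited table has 0.50 and 1.10, and for the base chaperone Psmd5 0.59 and 1.01. The core chaperone Psmg4 had 0.45 and 0.74, also called with the scrambled siRNA, per the authors' deposited table. The other chaperones were not called and had larger values with the Airn siRNA: Psmg2 with 0.62 against 0.47, Psmd9 with 0.45 against 0.23 and Psmg3 with 0.46 against 0.03 for the scrambled siRNA, per the authors' deposited table.

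The E2 family had the larger share of called genes. Of 30 E2 genes, 23 were called higher with the scrambled siRNA per the authors' deposited table and none lower, 76.7% against 61.7% of the proteasome genes. No test of this difference between the families was made. Ube2dnl, which was called lower, was assigned to no role and is not among the 30. With the least precise cluster of each gene, 21 E2 genes were called higher. The less precise Ube2f cluster was called lower with the scrambled siRNA (-1.22, adjusted p = 0.0121 per the authors' deposited table). The medians of the 2 families were alike, 0.49 for E2 genes and 0.45 for proteasome genes with the Airn siRNA, and 0.73 and 0.72 with the scrambled siRNA, per the authors' deposited table. Ube2g1, an E2 of degradative chains, was the highest with the scrambled siRNA per the authors' deposited table, at 0.70 ± 0.26 with the Airn siRNA and 1.27 ± 0.26 with the scrambled siRNA (2.41-fold, adjusted p = 0.00841). Ube2e2 had 1.05 ± 0.27 (adjusted p = 0.0602) and 1.14 ± 0.27 (adjusted p = 0.0115) per the authors' deposited table.

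E2 enzymes of several cellular tasks were among those called with the scrambled siRNA. Ube2a and Ube2b, the Rad6 homologues of DNA damage tolerance, had 0.63 and 0.68 with the Airn siRNA and 0.73 and 0.80 with the scrambled siRNA per the authors' deposited table. Ube2g2, which serves degradation at the endoplasmic reticulum, had 0.67 and 0.98 per the authors' deposited table. Ube2j1 and Ube2j2, both anchored in that membrane, differed in their own clusters. Ube2j1 was called at 0.52 with the scrambled siRNA and Ube2j2 was not at 0.16 per the authors' deposited table. A cluster that Ube2j2 shares with Gm5801, outside the rule for members, was called there at 0.80 (adjusted p = 0.0147) per the authors' deposited table. The broad-range enzymes Ube2d1, Ube2d2 (now Ube2d2a) and Ube2d3 had 0.98, 0.64 and 0.66 with the scrambled siRNA, and Ube2s, which extends chains for the anaphase-promoting complex, 0.73, per the authors' deposited table, all called.

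The other E2 genes called with the scrambled siRNA were Ube2k, Ube2l3, Ube2e3, Ube2o, Ube2q1, Ube2q2, Ube2w and Ube2r2, between 0.61 for Ube2r2 and 0.98 for Ube2e3 per the authors' deposited table.

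Not every such enzyme passed. Ube2n, which builds non-degradative chains with its Ube2v partners, stood at 0.57 ± 0.34 with the Airn siRNA and 0.79 ± 0.34 with the scrambled siRNA (adjusted p = 0.0734) per the authors' deposited table. Its partners, the variants without a catalytic cysteine, were both called with the scrambled siRNA by the clusters that represent them. Ube2v1 had 0.67 and 1.19, and Ube2v2 0.80 and 1.01, for the Airn and scrambled siRNA per the authors' deposited table. The least precise Ube2v1 cluster was not called, at -0.509 and -0.485 per the authors' deposited table. Ube2t of the Fanconi anaemia pathway stood at 0.41 and 0.34 and Ube2z, which takes ubiquitin from Uba6, at 0.54 and 0.58 per the authors' deposited table, neither called.

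E2 enzymes of other modifiers stood on the same side. Ube2l6, the E2 of the interferon-induced modifier ISG15, had 0.77 ± 0.26 with the Airn siRNA (adjusted p = 0.0895) and 1.06 ± 0.26 with the scrambled siRNA (adjusted p = 0.0134) per the authors' deposited table. Ube2m, an E2 of NEDD8, had 0.33 and 0.61 and was called with the scrambled siRNA per the authors' deposited table. Ube2f, the further E2 of NEDD8, was not called at 0.33 and 0.16 per the authors' deposited table.

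Few members lay below 0 with the scrambled siRNA. These were Psma8, Ube2dnl, Psmc3ip, Ube2u and Ube2ql1 per the authors' deposited table, of which Psma8 and Ube2dnl were called. Ube2dnl had -0.50 ± 0.24 with the Airn siRNA and -0.86 ± 0.24 with the scrambled siRNA (adjusted p = 0.0194) per the authors' deposited table. The authors' deposited table has Ube2u at -0.51 and -0.46, and Ube2ql1 at -0.66 and -0.41. Neither was called with either siRNA alone, and both were called lower in the average over the siRNAs, with adjusted p of 0.0153 and 0.0338 from the recovered SE. Of the symbols that match by name only, Ube2cbp stood at 0.50 with the Airn siRNA and 0.31 with the scrambled siRNA per the authors' deposited table, with no call.

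The symbol stands for more than 1 transcript cluster in 13 members, and 11 of these had clusters of 1 sign. Such a gene is represented by its cluster with the smallest SE. Of all 97 member clusters, 0 were called with the Airn siRNA, and 63 were called higher and 3 lower with the scrambled siRNA per the authors' deposited table. The background over all clusters of the authors' deposited table was 0.63% higher and 0.425% lower with the Airn siRNA, and 20.4% higher and 16.8% lower with the scrambled siRNA. The 3 clusters of Psma3 had 0.72, 0.71 and 0.83 with the Airn siRNA and 0.94, 0.92 and 1.11 with the scrambled siRNA per the authors' deposited table. Ube2f and Ube2v1 had clusters of opposite sign. The less precise Ube2f cluster stood at -0.96 ± 0.30 with the Airn siRNA and -1.22 ± 0.30 with the scrambled siRNA (adjusted p = 0.0121) per the authors' deposited table, across 0 from the other Ube2f cluster. Of the 3 Ube2v1 clusters, 2 were called higher with the scrambled siRNA (1.19 and 1.16), and the least precise stood at -0.51 ± 0.38 with the Airn siRNA and -0.48 ± 0.38 with the scrambled siRNA per the authors' deposited table. Both families have many processed copies in the genome, so probes can share near-identical sequence, and values of such genes are uncertain.

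**Figure D4:**
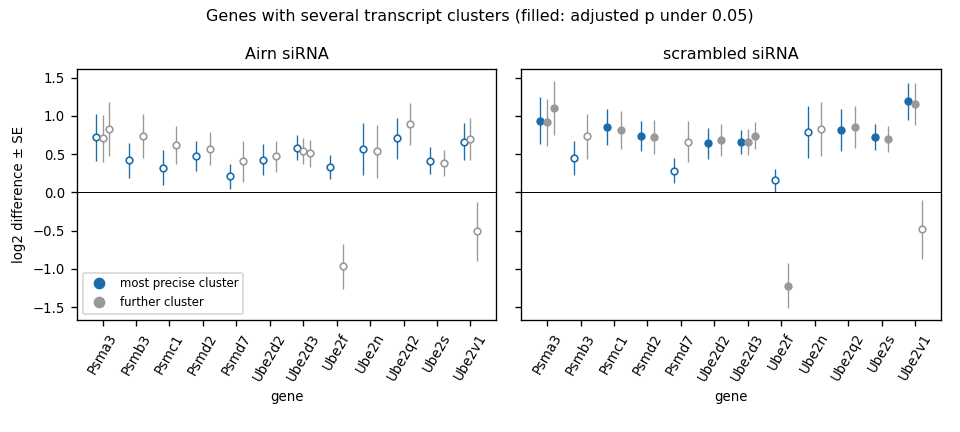
Log2 difference between Igf2bp2 and IgG precipitates (vertical axes, points with SE bars) for every transcript cluster of 12 of the genes with several, with the Airn siRNA on the left and the scrambled siRNA on the right. Blue marks the most precise cluster of a gene and filled points an adjusted p under 0.05. Clusters of 1 gene lie on the same side of 0 except in Ube2f and Ube2v1, whose lowest clusters stand at -1.22 and -0.48 with the scrambled siRNA.

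The change of enrichment, the Airn-siRNA difference minus the scrambled-siRNA difference, asked whether the Airn siRNA altered what Igf2bp2 precipitated. How far Airn itself fell in these cells cannot be read from differences between precipitates. It was below 0 in 66 of the 80 members, with a median of -0.26, but no member passed the test of the recovered values (lowest adjusted p = 0.998). Across all genes the change had a median of -0.01, with 10333 of 20170 genes below 0. The background was 0.0% of all genes called. At an unadjusted p under 0.05 the share was 3.75% of the members (3 genes) and 2.73% of all genes. Psmc3ip had the smallest p: it stood at 0.42 with the Airn siRNA and -0.51 with the scrambled siRNA per the authors' deposited table, a change of 0.93 ± 0.28 (95% interval 0.33 to 1.53, p = 0.0047, adjusted p = 0.998 in the recovered test). Ube2e3 stood at 0.11 and 0.98 per the authors' deposited table, a change of -0.88 ± 0.38 (95% interval -1.68 to -0.07, p = 0.0344). Psmd6 followed with a change of -0.85 ± 0.39 (95% interval -1.67 to -0.03). The intervals of Psma5 (-0.83, from -1.80 to 0.13) and Psmc6 (-0.78, from -1.71 to 0.16) held 0.

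Genes called higher with the scrambled siRNA mostly had smaller values with the Airn siRNA, within the families and among all genes. Of the 52 members called higher with the scrambled siRNA, 98.1% had a smaller value with the Airn siRNA and all 52 stayed above 0 per the authors' deposited table. Of all 5149 genes called higher with the scrambled siRNA, 90.2% had a smaller value with the Airn siRNA, and their median change was -0.28, against -0.30 for the members called higher. Choosing genes for a high value in 1 comparison favours a smaller value in the other, so neither figure is a test of Airn. Across the 80 members, Pearson's r between the values with the 2 siRNAs was 0.74 and Spearman's rho was 0.61. Across all genes r was 0.87. Genes share arrays and probes' properties and are not independent replicates.

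**Figure D5:**
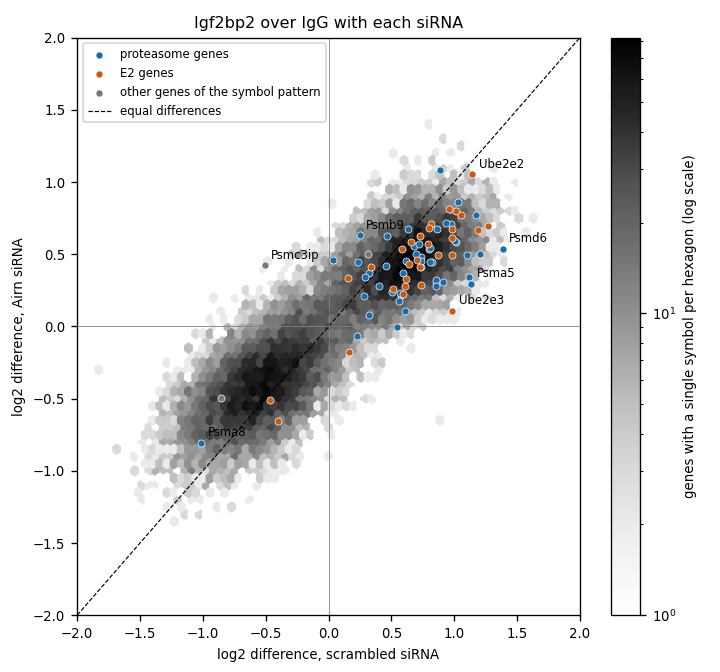
Log2 difference between Igf2bp2 and IgG precipitates with the Airn siRNA (vertical axis) against that with the scrambled siRNA (horizontal axis) for the members, over the density of all 20170 genes (grey hexagons, log scale). The dashed line marks equal differences: 66 members lie below it, and Psmc3ip lies farthest above it.

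Averaged over both siRNAs, which uses all 16 arrays, 62 members were called higher and 4 lower in the test of the recovered values. The background there was 35.8% of all genes called higher and 30.0% called lower, so the average calls most of the table. Counted over clusters, 76 of the members' 97 were higher and 5 lower in the average, against 29.2% and 29.0% of all clusters. The highest averages were Ube2e2 (1.10 ± 0.19, adjusted p = 0.00154), Ube2g1 (0.98 ± 0.18), Psme2 (0.98 ± 0.31), Psmd10 (0.97 ± 0.20) and Psmd6 (0.96 ± 0.19, adjusted p = 0.00243). All 5 activator and inhibitor genes were called higher in it, as were 13 of 17 cap genes, 11 of 14 core genes, 5 of 7 chaperones and 26 of 30 E2 genes. Not called were Psmb1, Psmb5, Psmb8, Psmb10, Psmb11, Psmc2, Psmd4, Psmd7, Psmd8, Psmd9, Psmg3, Psmc3ip, Ube2f and Ube2j2.

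Other genes of the ubiquitin pathway, taken from lists of names, lay mostly on the same side. Of 7 E1 enzyme genes 6 were called higher with the scrambled siRNA and none with the Airn siRNA per the authors' deposited table. The 7 genes of E2 enzymes or E2 variants with other symbols were all called higher with the scrambled siRNA and none with the Airn siRNA, per the authors' deposited table. The E1 gene Nae1 of NEDD8 had 0.52 and 1.00 and the autophagy E2 gene Atg3 0.70 and 1.28 with the Airn and scrambled siRNA per the authors' deposited table. Of 7 ubiquitin-like modifier genes, 1 was called with the Airn siRNA (Sumo3, 0.72, adjusted p = 0.0493) and 5 with the scrambled siRNA per the authors' deposited table. Nedd8 had 0.20 with the Airn siRNA and 1.24 with the scrambled siRNA (adjusted p = 0.0257), and the modifier Isg15 0.08 and -0.16 and no call, per the authors' deposited table.

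Rps27a, a fusion of ubiquitin with a ribosomal protein, stood at -0.07 with the Airn siRNA and 0.27 with the scrambled siRNA per the authors' deposited table, neither called. Of 17 proteasome partners and shuttle factors, 9 were called higher with the scrambled siRNA and none lower per the authors' deposited table. Nfe2l1, the transcription factor of proteasome genes, had 0.52 with the Airn siRNA and 0.63 with the scrambled siRNA (adjusted p = 0.0132) per the authors' deposited table. Of 10 genes of the unfoldase Vcp and its cofactors, 5 were called higher with the scrambled siRNA per the authors' deposited table, with Ufd1l at 0.37 and 0.98. None of these 2 lists' genes was called with the Airn siRNA per the authors' deposited table.

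Markers of cell types were also read, although differences between precipitates cannot show which cells were present. Of 14 atrial cardiomyocyte markers, 2 were called higher with the Airn siRNA (Nppa and Myl4) and 8 with the scrambled siRNA per the authors' deposited table. Of 9 leukocyte markers, 0 were called with the Airn siRNA, and 1 was called higher and 4 lower with the scrambled siRNA per the authors' deposited table. With the Airn siRNA no marker of fibroblasts, endothelium or smooth muscle was called per the authors' deposited table. With the scrambled siRNA the authors' deposited table called 1 of 6 fibroblast markers higher and 1 lower, 2 of 5 endothelial markers lower, and 3 of 4 smooth muscle markers higher and 1 lower. The part of other cell types in the members' values was not tested. The sum of marker levels could not be given because the table holds differences between precipitates, not levels.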

How the data were processed

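RNA precipitated with anti-Igf2bp2 or IgG from HL-1 cells was measured on Affymetrix arrays (labels' protocols). The authors' deposited table holds, per the file headers, a difference between precipitates, a p-value and an adjusted p-value for each of 35556 transcript clusters and each siRNA. The deposited differences, some negative, were taken as log2, the usual scale of such tables. The header does not name the base, and it was not testable. The software for summarisation, normalization, filters and the statistical model is not given in any source used here. The fit to single arrays that had been planned needs values that a table of comparisons lacks. Replicates are biological per the labels, and their number limits the precision.

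Members are single symbols, and a gene with several clusters was represented by the one with the smallest SE. Of all clusters 22406 carried a single symbol, and 24 with a symbol turned into a date were left out of the gene counts. The SE was recovered from the difference and p with 16.13 degrees of freedom, the value at which both comparisons gave the same SE (median disagreement 0.0648% over 27436 clusters). For each cluster it was taken from the comparison with the smaller rounding error and used for both siRNAs. P-values under 5e-05, which the table rounds, were restored through the rank of the adjusted p. The change and the average of the differences were tested against a t distribution with errors taken as independent, with Benjamini-Hochberg adjustment across the whole table. A call is an adjusted p under 0.05. The recovery was tested on simulated arrays with limma 3.58.1 in R 4.3.3. Analyses used Python 3.11.15 with scipy 1.17.1 and pandas 2.3.3.

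Named genes were the immunoproteasome subunits and their counterparts, the highest and lowest 3 of each role with the scrambled siRNA, members called with the Airn siRNA or called lower, the 5 smallest p of the change and members whose clusters disagreed. A few further members are named for their role, chosen after their values were seen. The members and lists were chosen with earlier results of these data known. A few items of the lists and figures are not reported here. The 10 alternatives tried concern adjustment, centring, thresholds, cluster choice, error correlation, degrees of freedom and membership.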

Additional observations from a re-analysis of the deposited data

How the results depend on the processing

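Members' counts moved with thresholds and centring more than with other choices. With centring on the median of all clusters (-0.06 with the Airn siRNA and -0.10 with the scrambled siRNA), 6 members were called higher with the Airn siRNA in place of 0, of them 2 proteasome and 3 E2 genes, and 1184 clusters in place of 375. Of calls, 80.2% were then higher against 59.7% with the Airn siRNA, 68.8% against 54.9% with the scrambled siRNA, and 60.4% against 50.1% in the average. Adjusting among single symbols left 36 clusters called with the Airn siRNA. At an adjusted p under 0.01, 16 clusters were called with the Airn siRNA, and with the scrambled siRNA 1305 clusters, 5 members higher (1 proteasome and 4 E2 genes) and 0 lower. In the average 10270 clusters, 38 members higher (21 proteasome and 16 E2 genes) and 2 lower passed at 0.01. With a 1.5-fold minimum the average kept 12868 clusters, 40 members higher, among them 15 E2 genes, and 2 lower. An error correlation of 0.3 gave 2 clusters called in the change, none of them a member. Without Psmc3ip, Ube2cbp and Ube2dnl, 1 member in place of 2 was called lower with the scrambled siRNA. All members are protein-coding in the annotation, which was read by gene symbol, so leaving out pseudogenes could change nothing. Whether a member's cluster measures a processed copy of the gene was not tested.

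With the least precise cluster of each gene, Ube2f turned to -0.96 with the Airn siRNA, -1.22 with the scrambled siRNA and -1.09 in the average, and Ube2v1 to -0.51, -0.48 and -0.50. The changes of Psmb3 and Ube2q2, near 0, turned to 0.005 and 0.044. With centring Psmb1 turned to 0.054 with the Airn siRNA, and in the average Psmc3ip to 0.044 and Ube2j2 to 0.08. The cause of these turns was not tested, beyond the choice of cluster or centre itself. The other counts and medians stayed within 1.5 times their value or within the SE under the alternatives run.

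No paired analysis was possible because the table holds no values of single arrays, and leaving out each replicate was not run for the same reason. The authors' normalization and the signal over background were not examined.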

Other observations

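Clusters that carry a member's symbol together with another symbol were outside the rule for members. Of 16 such clusters, 10 were called higher with the scrambled siRNA and none lower, and 0 were called with the Airn siRNA, per the authors' deposited table. They hold the only values of 4 further subunit and E2 genes. The cluster of the alpha subunit Psma4, shared with AY074887, stood at 0.32 with the Airn siRNA and 1.14 with the scrambled siRNA (adjusted p = 0.0182) per the authors' deposited table. Both clusters of Ube2h, shared with Gm2058, were called with the scrambled siRNA (0.88 and 0.78) per the authors' deposited table. Ube2c, the mitotic E2, shared its cluster with the skeletal troponin gene Tnnc2 and stood at -0.08 and 0.36, and Ube2e1, shared with Nkiras1, at 0.47 and 0.37, neither called per the authors' deposited table. The cluster of Ube2f shared with Gm5434 stood at 0.75 with the Airn siRNA and 0.94 with the scrambled siRNA (adjusted p = 0.0132) per the authors' deposited table, so that the 3 clusters with this symbol were called higher, called lower and not called with the scrambled siRNA.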
